A study of Homo sapiens with 4 samples.

Results

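The 10 genes described here are identity genes of epithelial and luminal breast cells: ESR1, GATA3, FOXA1, ERBB3, CDH1, EPCAM, ESRP1, GRHL2, OVOL1 and ELF3. They were chosen by name, with earlier results of these data known. A PML peak belonged to a gene when the deposited peak table gave that gene as the nearest one. By this rule 8 of 68937 peaks belonged to 5 of the 10 genes, and the other 5 genes, ESR1, GATA3, ESRP1, GRHL2 and ELF3, were the nearest gene of no peak. The table comes from 2 PML ChIP libraries, made with an antibody to PML, and 2 input libraries of the human cell line MDA-MB-231, which derives from a triple-negative breast cancer and was kept in serum-containing medium with no other treatment named. The authors merged the duplicates into 1 list, so no value has a replicate error, the read depth is unknown and no test between conditions can be made. The table holds no expression values, and the labelled line could not be checked by its marker genes.

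PML is the protein that builds PML nuclear bodies, round assemblies in the nucleus that respond to stress and take part in transcription and senescence. Luminal breast cells are known for a circuit in which the estrogen receptor works with GATA3 and FOXA1, while epithelial cells in general are held together by E-cadherin and EpCAM and use the factors GRHL2, OVOL1 and ELF3 and the splicing regulator ESRP1. MDA-MB-231 belongs to the basal B, mesenchymal-like lines, in which these genes are known to be low or silent, and in which repressors such as ZEB1 bind E-boxes, short CANNTG sequences, at epithelial promoters. Each peak has a score from the authors, in whole numbers and on a scale that the table does not state. Over the whole list its lowest value was 13 and its median 34, and it is used here only to order peaks within this list.

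The 10 genes had promoter peaks about as often as other genes, and at 4 of the 5 with one its score lay below the median of other genes' highest promoter peaks. A promoter peak is one centred within 1000 bp of the transcription start site (TSS) of its nearest gene. FOXA1, ERBB3, CDH1, EPCAM and OVOL1 had one, 5 of 10 genes (50%, exact Clopper-Pearson 95% interval 18.7 to 81.3%, counting error only), against 54.5% of 20037 RefSeq protein-coding genes. Among only the genes that the table names, 78.6% had one, but a gene without a nearby peak cannot enter that count. The share of 50% is near the RefSeq background and is no result about these genes. The highest promoter peak score was 142 at EPCAM, 47 at OVOL1, 42 at CDH1, 37 at ERBB3 and 36 at FOXA1. Their median was 42, against a median of 63 over the 10958 protein-coding genes of the table with a promoter peak. EPCAM scored higher than 85.5% of those genes, while the other 4 scored higher than 18.6 to 32.0% of them. The 8 peaks had a median score of 36.5, against 34 over the whole list, and 5 of the 8 lay at or above 34. That comparison mixes classes, since only 13770 of the 68937 peaks are promoter peaks. The median was 58 over all promoter peaks, and of the promoter peaks described here only that of EPCAM lay above it. Over all gene body peaks the median was 31, and those of FOXA1 (26) and CDH1 (21) lay below it. No repeat element was named for any of the 8 peaks.

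Sequence upstream of the start could be read for 4 of the 10 genes. ESR1 and GATA3, without a promoter peak, had 6 starts each and are not printed. The sequences of FOXA1, whose promoter carried a peak, and of ELF3, which had none, are shown side by side, with 1 start each. They are the 250 bases before the RefSeq start in GRCh38.p14, FOXA1 on the minus strand (chr14:37595250-37595499) and ELF3 on the plus strand (chr1:202010337-202010586). Capitals mark E-boxes (CANNTG, a palindrome) and GC boxes (GGGCGG, on either strand), which SP1 binds.
FOXA1: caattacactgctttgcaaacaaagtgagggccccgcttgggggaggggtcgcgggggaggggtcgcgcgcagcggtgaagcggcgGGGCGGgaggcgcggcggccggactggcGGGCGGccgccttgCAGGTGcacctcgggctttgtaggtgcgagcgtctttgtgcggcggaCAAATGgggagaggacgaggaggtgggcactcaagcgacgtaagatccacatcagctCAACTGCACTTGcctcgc
ELF3: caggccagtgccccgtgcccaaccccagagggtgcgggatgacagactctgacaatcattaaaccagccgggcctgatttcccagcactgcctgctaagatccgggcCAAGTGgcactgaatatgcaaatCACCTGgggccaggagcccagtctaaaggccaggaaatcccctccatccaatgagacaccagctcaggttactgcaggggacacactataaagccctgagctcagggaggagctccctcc
The FOXA1 stretch is rich in CpG, with 26 CpG dinucleotides, and the ELF3 stretch has 4. The ESR1 stretches hold 2 to 11 and the GATA3 stretches 4 to 30. The median was 16 over the 22199 upstream stretches of protein-coding genes, among which a gene with several starts counts more than once. FOXA1 held 4 E-boxes and 2 GC boxes, and ELF3 held 2 E-boxes and no GC box. Of all such stretches 58.1% held at least 1 E-box and 53.7% at least 1 GC box; how many hold as many as FOXA1 was not counted. Each of the 2 genes had 1 E-box of the form CACCTG or its complement CAGGTG, which ZEB and Snail proteins are known to bind, and 17.0% of all stretches held it. The ELF3 stretch also held TATAAA, found on either strand in 9.01% of stretches, and CCAAT, found in 32.7%. The FOXA1 peak covers only the last 33 of the 250 bases, with 2 of the 4 E-boxes, and reaches into the gene. The CAGGTG E-box and the 2 GC boxes of FOXA1 lie outside the peak. These matches describe the letters and do not show that a factor binds there.

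Among the luminal transcription factors, FOXA1 carried 2 peaks and ESR1 and GATA3 were named for none. FOXA1 encodes a pioneer factor that opens chromatin for the estrogen receptor. Its promoter peak lay on chromosome 14 from 37594600 to 37595282 (hg38), 683 bp wide, with a score of 36 and its centre 308 bp inside the gene. The annotation class named the promoter of a TTC6 transcript there, since TTC6 starts 380 bp from the FOXA1 start and runs the other way, so the peak cannot be given to FOXA1 alone. The other FOXA1 peak, from 37591914 to 37592251 in exon 2 of 2, had a score of 26. A higher peak, with a score of 75, lay 15771 bp from FOXA1 on the TTC6 side and was named for TTC6.

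ESR1, the estrogen receptor alpha gene, spans 472948 bp of chromosome 6 and was overlapped by a single peak. That peak, from 152039871 to 152040238, had a score of 31 and lay in intron 6 of 8 of an ESR1 transcript. The table named it for SYNE1, from a SYNE1 transcript start 128233 bp away. None of the 6 ESR1 promoter windows in the RefSeq table touched a peak, and the nearest peak to any of them was 162086 bp away. The next peak before the gene was at the promoter of CCDC170, with a score of 26, and the next one after it lay 507018 bp past the gene's end.

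GATA3, a zinc-finger factor of luminal cells, had no peak in or near it. The closest peak was at the TAF3 promoter, with a score of 68, 226211 bp away on one side. On the other side the closest lay 2943045 bp away, with a score of 14. GATA3 was the only protein-coding gene lying whole inside this peak-free stretch of 3199 kb. Of 68913 gaps between neighbouring peaks, 40 were as long or longer, centromeric gaps included, and the median gap was 8628 bp. For the gaps around GRHL2, ESRP1 and ELF3 these counts were 349, 412 and 3267. Counted by gene, GATA3 lay farther from its nearest peak than 96.5% of protein-coding genes. None of the 6 GATA3 promoter windows touched a peak. The 250 bases before these starts hold 4 to 30 CpG dinucleotides, against 26 at FOXA1 and 2 to 11 at ESR1. Whether CpG content bears on these peaks was not tested.

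ERBB3, a receptor of the EGF receptor family that signals through its partner ERBB2, carried a pair of promoter peaks on chromosome 12. The upstream one, from 56079280 to 56079586, had a score of 37 and was centred 592 bp before a start. The one from 56079921 to 56080547 covered the 5' UTR in exon 1 of 28 and had a score of 31. The rest of the 23398 bp gene carried no peak. Of 27 other protein-coding genes within 250 kb of its middle, 14 had a promoter peak (51.9%, against 54.5% of all genes), and 9 of those scored higher than ERBB3. They include RPS26 with 122, ANKRD52 with 98, ZC3H10 with 90 and the next gene, PA2G4, with 42.

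Both adhesion genes had a promoter peak, that of EPCAM far higher. EPCAM encodes a surface protein of epithelial cells. Its peak, on chromosome 2 from 47369046 to 47370108, was 1063 bp wide and covered exon 1 of 9, with a score of 142, which ranked 2180 among all peaks. It was the only member peak among the 5000 highest-scoring peaks of the table. Of genes within 250 kb of its middle, KCNK12 (111) and STPG4 (25) had a lower promoter peak than EPCAM, and CALM2 (220) a higher one. No other peak overlapped EPCAM.

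CDH1, which encodes E-cadherin, had a narrow peak just inside the gene and a second one deep in it. The first, on chromosome 16 from 68737334 to 68737633, was 300 bp wide against a median of 739 bp for promoter peaks, had a score of 42 and was named as a CpG island. It begins 42 bp after the RefSeq start, so the sequence upstream of that start lies outside it. No CDH1 sequence was read, so where its E-boxes lie relative to the peak was not checked. The second, from 68770527 to 68771257, was 731 bp wide in intron 2 of 15, 33600 bp from the TSS, with a score of 21, the lowest of the 8 peaks. Intron 2 of mouse Cdh1 is known to hold sequence needed for its expression. The neighbours CDH3, or P-cadherin, with 31 and TANGO6 with 26 scored lower at their promoters than CDH1.

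ESRP1, which directs epithelial splicing, had no peak in its 66293 bp on chromosome 8. The closest was the DPY19L4 promoter peak, with a score of 122, 12025 bp past its upper end. On the other side the closest was 723493 bp away. The peak-free stretch of 801.8 kb around ESRP1 also held CDH17, FSBP, GEM, RAD54B and VIRMA whole.

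Of the 3 epithelial transcription factors, only OVOL1 had a peak. GRHL2, a grainyhead factor that activates CDH1, had its nearest peak 286254 bp away and lies in a peak-free stretch of 918.1 kb on chromosome 8 between ZNF706 (score 42) and NCALD (31). ELF3, an ETS factor, had its nearest peak 27312 bp away at the RNPEP promoter, with a score of 42. OVOL1, a zinc-finger repressor of mesenchymal genes, had a promoter peak on chromosome 11 from 65787341 to 65788117, 777 bp wide, in intron 1 of 3 and named as a CpG island, with a score of 47.

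OVOL1 carried more peaks than its name in the table shows. A peak from 65792112 to 65792723 (score 43, intron 1 of 3) and one from 65793295 to 65795002 (score 28, exon 2 of 4) lie within OVOL1 but were named for its antisense gene OVOL1-AS1. Another, with a score of 75, lies 308 bp past the end of OVOL1 and was also named for OVOL1-AS1. The table's names go by the nearest start. The 2 peaks within OVOL1 were centred 1549 and 3280 bp upstream of an OVOL1-AS1 start, so by position they lie in OVOL1. Whether any of these peaks bears on either gene was not tested. Of 30 other protein-coding genes within 250 kb of the middle of OVOL1, 23 had a promoter peak (76.7%, against 54.5% of all genes). Of those, 19 had a higher score than OVOL1, 3 a lower one and LTBP3 the same. FOSL1 (293), BANF1 (215) and CFL1 (189) were among the higher, and the next gene, AP5B1, had 158.

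**Figure D1:**
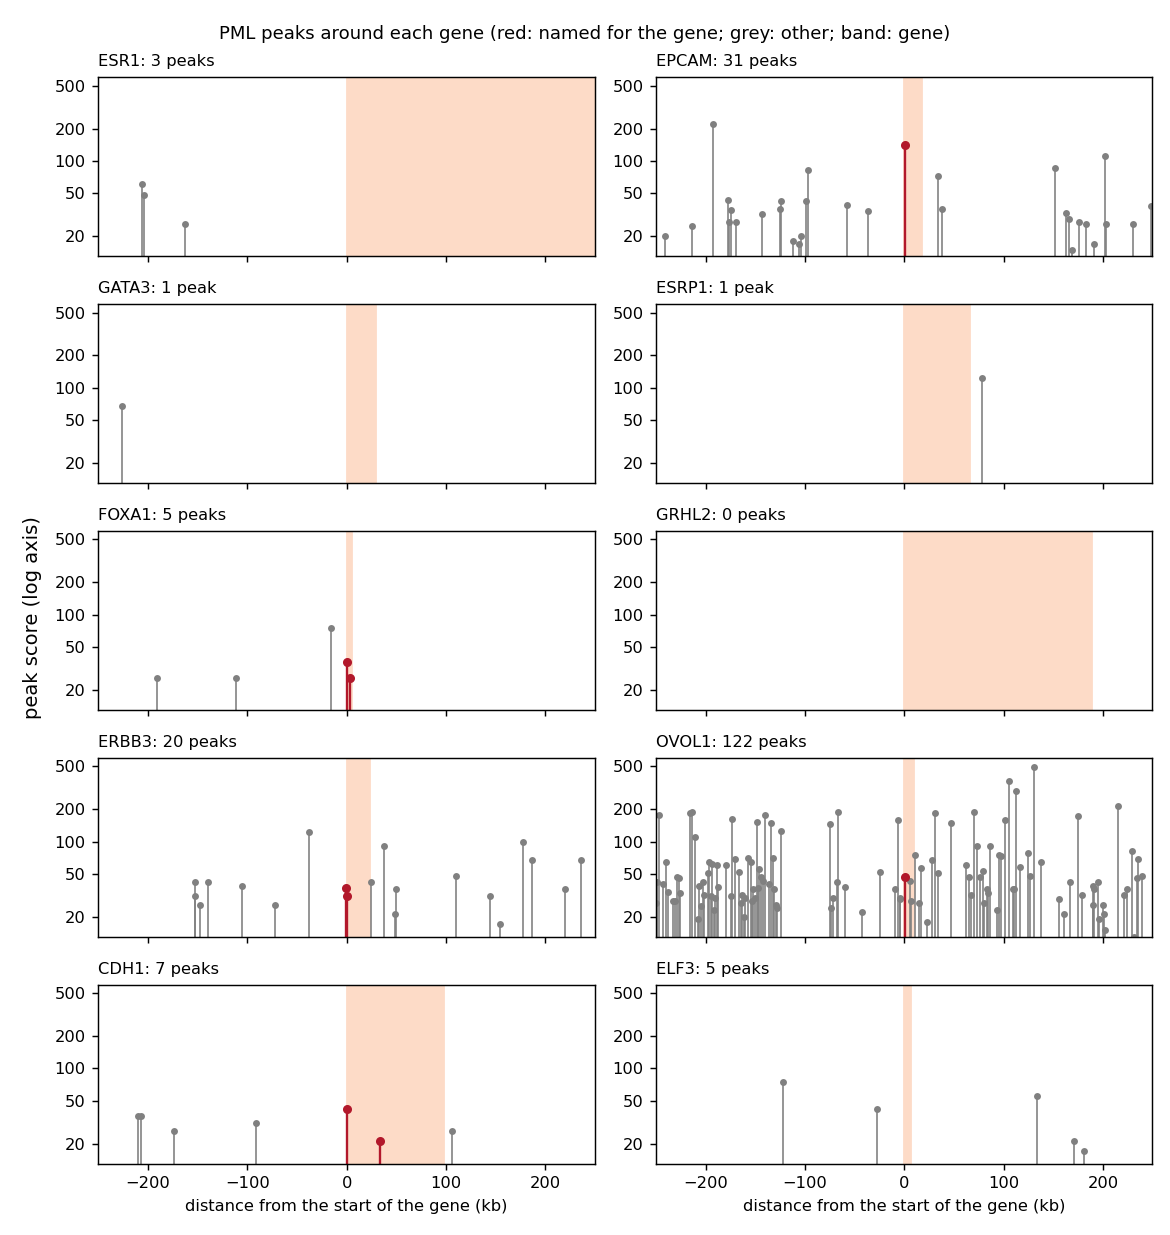
Peaks of the whole table within 250 kb of the start of each of the 10 genes (x axis, kb from the start, positive into the gene; for ESRP1, GRHL2 and EPCAM the lower coordinate is taken as the start), with their score on a log axis; red marks peaks named for the gene, grey marks all others, and the band is the gene. GRHL2 has 0 peaks in its window and OVOL1 has 122; the peak within ESR1 lies beyond the right edge.

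Counted by where a peak lies rather than by the name given to it, 10 peaks overlapped 6 of the 10 genes, against 70.8% of all RefSeq protein-coding genes with an overlapping peak: 3 in OVOL1, 2 each in CDH1 and FOXA1, and 1 each in ESR1, ERBB3 and EPCAM. GATA3, ESRP1, GRHL2 and ELF3 were overlapped by none, 4 of 10 genes against 29.2% of all RefSeq protein-coding genes. GATA3 and GRHL2 had no peak within 200 kb, 2 of 10 genes against 4.0% of all genes, a distance chosen after the values were seen. By the table's names, 2 of 10 genes (FOXA1 and CDH1) had a gene body peak away from the promoter, against 34.8% of all genes. None had an intergenic peak, against 24.5% of all genes. By the rule-of-3 approximation (3 of 10, at 95% confidence), a count of 0 of 10 allows a share of up to about 30%. The difference in intergenic peaks therefore cannot be read as a lack.

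The surroundings of the 10 genes ranged from no peaks of other genes at all around GRHL2 to more than around 98.6% of genes at OVOL1. In the 500 kb around the middle of a gene, leaving out peaks named for the gene itself, the 5 genes with a promoter peak had 118 (OVOL1), 31 (EPCAM), 18 (ERBB3), 3 (CDH1) and 3 (FOXA1) peaks. The 5 without one had 5 (ELF3), 3 (ESRP1), 1 (ESR1), 1 (GATA3) and 0 (GRHL2). The groups overlap, since ELF3 lies above CDH1 and FOXA1. Over all protein-coding genes the median was 15 peaks around the 10915 with a promoter peak and 8 around the 9122 without, with interquartile ranges of 5 to 33 and 3 to 20. Of the 10 genes, 7 lay below the median of all genes, 12. How far local gene density or copy number sets these counts was not tested.

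**Figure D2:**
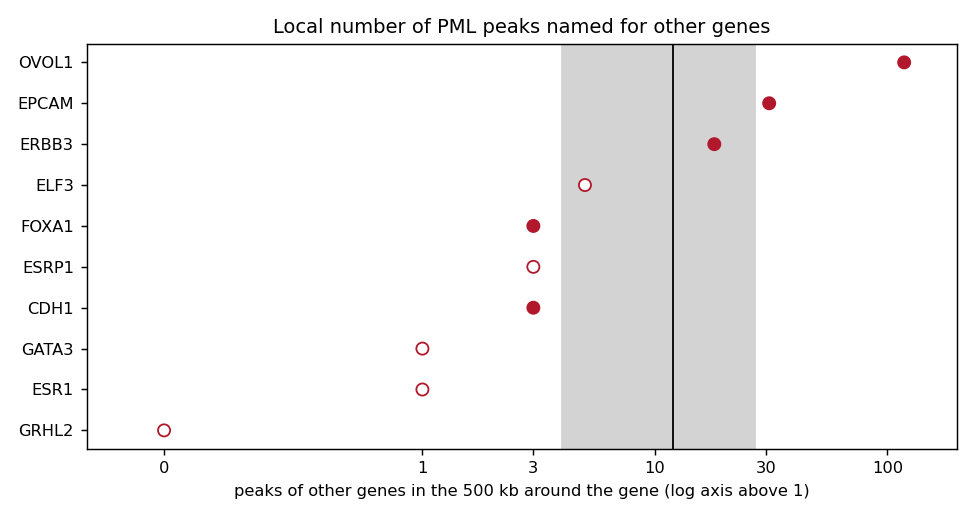
Number of peaks named for other genes in the 500 kb around each of the 10 genes (x axis, log scale above 1), with filled points for genes with a promoter peak and open points for genes without; the grey band is the interquartile range of all RefSeq protein-coding genes (4 to 27) and the line their median (12). OVOL1 (118) and EPCAM (31) lie above the band, and CDH1, FOXA1, ESRP1, GATA3, ESR1 and GRHL2 lie below it.

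Some close relatives of the genes without a peak had one; these relatives were picked out after their values were seen, from a wider luminal and epithelial list. At GRHL1, a grainyhead factor like GRHL2, the promoter peak lay on chromosome 2 from 9950308 to 9952299 and scored 187, the highest of the wider list. GRHL3 had no promoter peak, 1 gene body peak and 1 intergenic peak. ESRP2, which shares its splicing role with ESRP1, scored 36 at its promoter. OVOL2 had none, and its nearest peak lay 54684 bp away. Among the ERBB receptors ERBB2 had 48, next to 37 for ERBB3, and the nearest peak to ERBB4 lay 612802 bp away. EGFR, of the same family but placed in the mesenchymal list below, had 177. The ETS factors ELF5 and EHF resembled ELF3 in having none, with the nearest peak 120790 bp and 252434 bp away.

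In the wider list of 44 other luminal and epithelial genes, 29 had a promoter peak (65.9%, exact interval 50.1 to 79.5%, counting error only), against the same 54.5% of all genes. The median of their highest scores was 58. By role, a promoter peak was present at 7 of 8 tight junction genes, 4 of 4 desmosome genes, 2 of 4 keratin genes, 7 of 11 hormone receptor and luminal genes and 2 of 6 epithelial transcription factors. The remaining roles had 2 of 4 proteases and inhibitors, 3 of 4 trafficking and other genes, 1 of 2 ERBB receptors and 1 of 1 splicing gene. These roles hold few genes each and were not tested against the share of all genes. After GRHL1 the highest were MAL2, a vesicle protein of polarised cells, with 135, and CGN, the tight junction protein cingulin, with 132. The progesterone receptor gene PGR, a target of the estrogen receptor, had 26, and the estrogen-induced gene TFF1 had no peak, both chosen after their values were seen.

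Mesenchymal genes, the counterpart of this programme, had a promoter peak at 24 of 30 genes (80%, exact interval 61.4 to 92.3%, counting error only). The background was the same 54.5% of all genes. The list was picked by hand and holds neighbouring genes such as CAV1 and CAV2, so the interval is no test against that share. The median of the highest scores was 42 over the 5 identity genes with a promoter peak and 58 for the wider epithelial list, against 92.5 for the mesenchymal list and 63 for all genes; the lists were chosen with earlier results known, and no test was made between them. The 3 highest were FOSL1, an AP-1 subunit, with 293, PLAU, the urokinase gene, with 199, and EGFR, the EGF receptor gene, with 177. Of the 4 repressors of CDH1 in the list, SNAI1 scored 96 at its promoter and SNAI2 scored 42. ZEB1 and ZEB2 were the nearest gene of no peak, though 2 peaks overlapped each of them.

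**Figure D3:**
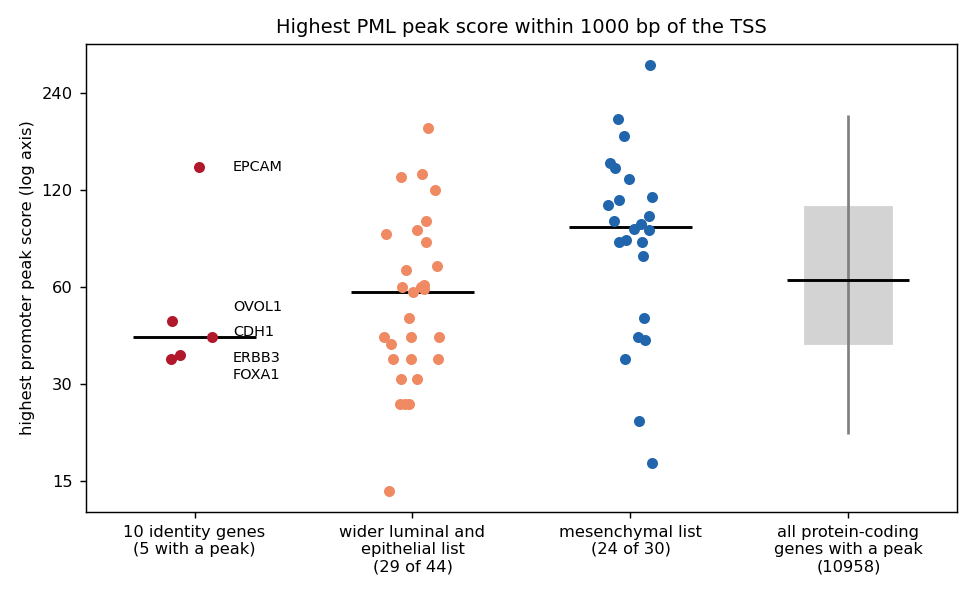
Highest promoter peak score of each gene with a promoter peak (y axis, log scale) for the 10 identity genes, the wider luminal and epithelial list, the mesenchymal list and all protein-coding genes of the table; black lines are medians (42, 58, 92.5 and 63), the grey box is the interquartile range of all genes (40 to 106) and its line runs between the 5th and 95th percentiles (21 to 205). OVOL1, CDH1, ERBB3 and FOXA1 lie between 36 and 47, and EPCAM lies apart at 142.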

How the data were processed

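The deposited data are 1 peak table, made by the authors from 2 PML ChIP libraries and 2 input libraries; per the labels the duplicates were merged. Per the submitters' processing notes, MACS2 2.1.1.20160309, HOMER 4.11.1, BWA 0.7.12, Trimmomatic 0.36 and Picard 2.0.1 were used with the build hg38; their settings are not given in the sources used here. Per the file headers each peak has positions, a score, an annotation class and the nearest gene with its TSS distance. The deposited score has no stated scale and was only ranked within the list.

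Here peaks were split into promoter (within 1000 bp of a TSS), gene body and intergenic. Overlaps and local counts used RefSeq gene ends of GRCh38.p14, matched by gene ID or symbol; all 10 genes matched, and 4 had promoter sequence in the RefSeq table. The members and lists were chosen with earlier results of these data known. The rule for named genes took the 10 genes, the 3 highest of the wider and of the mesenchymal list, and ZEB1, ZEB2, SNAI1 and SNAI2; other genes of the wider list, and neighbouring genes, were named after their values were seen. No test was run, because 1 merged list has no replicates. The functions for classes and distances were tested on simulated data. Alternatives covered the window, the peaks kept, gene assignment and the background. Python 3.11.15 with numpy 2.4.6, pandas 2.3.3, scipy 1.17.1 and matplotlib 3.10.9 was used.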

Additional observations from a re-analysis of the deposited data

How the results depend on the processing

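The count of 5 genes with a promoter peak was also 5 with a 5000 bp window, with the 35045 peaks at or above the median score and with any peak near the RefSeq start, 4 with a 500 bp window, which leaves out OVOL1, and 1 (EPCAM) among the 5000 highest-scoring peaks. Their median score was 39 with 500 bp, against 42. Of the 8 peaks, 5 lay at or above the median score and 1 among the 5000 highest; 10 peaks overlapped the genes. Genes with a gene body peak numbered 2 by the table's names, 4 by overlap outside the promoter window (ESR1, FOXA1, CDH1 and OVOL1) and 0 at or above the median score. The background share of genes with a promoter peak was 78.6% of the 13948 protein-coding genes named in the table and 54.5% of RefSeq genes; the table names a gene only where some peak lies nearest to it, so the second was used for the shares. No paired analysis was possible because the authors merged the duplicates, and for the same reason no replicate could be left out. Unknown depth limits what the absence of a peak can show.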
